A study of Mus musculus with 24 samples.

Results

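The genes described here are 32 genes that mark astrocytes and tanycytes, measured in the hypothalamus of 24 male mice. They were listed by name for their known roles in these cells, and 30 of the 32 were among the 13998 genes measured. *Mt3* and *Rax*, the homeobox gene that marks tanycytes, were not analysed here, so among the members the tanycytes of the third ventricle were read mainly through *Vim* and *Fabp7*, which astrocytes share. The mice were 12 *cast/cast* and 12 *b6/b6* F2 animals from an intercross of the congenic strain B6.CAST-17.1 with C57BL/6J. Mice called *cast/cast* carried 2 CAST/EiJ alleles across a segment of Chr 17, and mice called *b6/b6* carried 2 C57BL/6J alleles there. The rest of the genome was C57BL/6J in both groups. Both groups were 10 to 16 weeks old at the start and chose for 10 d between a carbohydrate/protein (C/P) and a fat/protein (F/P) diet, ate chow for at least 2 weeks, had both diets again for 48 h and were fasted for 4 h before dissection. They had been picked from opposite tails of the intake distribution, *cast/cast* mice for high and *b6/b6* mice for low C/P intake. C/P intake over 10 d was 77.8 to 106.6 kcal in the *cast/cast* group and 27.4 to 41.0 kcal in the *b6/b6* group, so that genotype and C/P intake cannot be told apart between the groups. Total intake overlapped, at 104.0 to 133.1 and 94.8 to 120.2 kcal.

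Astrocytes clear glutamate and potassium from the space around synapses, pass water and ions to vessels through their endfeet, couple to one another through gap junctions and supply neurons with glutamine, lactate and lipids. Tanycytes are radial glia-like cells in the floor and walls of the third ventricle that contact both cerebrospinal fluid and hypothalamic nuclei. In the hypothalamus both cell types are known for sensing nutrients and hormones that bear on feeding. Several members are not exclusive to them: microglia also express *Apoe* and *Cst3*, oligodendrocytes *Glul*, and vessel and ependymal cells *Vim*.

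Expression was measured by SAGE-Seq, in which a restriction enzyme cuts cDNA at CATG and 1 short tag next to the last such site is counted for each transcript. A level is therefore a relative count of tag reads and not a number of transcripts. As 1 tag is counted for each transcript, levels of different genes need no division by gene length. Every level below is a normalized tag count, that is, tag hits divided by the library's DESeq size factor. The tag expected for each member was located on GRCm38 as the 27 bases that start at the last CATG of its RefSeq transcripts. RefSeq transcripts here were the GENCODE vM21 transcripts matched to RefSeq. All 30 members had such a tag and no other gene shared it. It lay in the 3′ UTR of 29 members and in the coding sequence of *Vim*, and 23 members had a single distinct tag over their RefSeq transcripts. The tags of 11 members on which the results below turn follow, 5′ to 3′, with the enzyme site in capitals. All are in the 3′ UTR but that of *Vim*.
*Gja1*, chr10:56390335-56390361, plus strand: CATGtaatgtagacctagcccatccaa
*Gjb6*, chr14:57123319-57123345, minus strand: CATGaatatgatctcgccaataaagct
*Acsbg1*, chr9:54605356-54605382, minus strand: CATGcttgtggcttctgctggagacca
*Cst3*, chr2:148871733-148871759, minus strand: CATGccttgctcaattaaaaaaaaaaa
*Slc4a4*, chr5:89239430-89239456, plus strand: CATGgtggaacaaaatgataaagaaca
*Ntsr2*, chr12:16660015-16660041, plus strand: CATGccattactaacagtctaagcgga
*Fabp7*, chr10:57788317-57788343, plus strand: CATGggattttgatatgcaaatttact
*Apoe*, chr7:19696168-19696194, minus strand: CATGgccctgtcactatctgtagaggg
*Slc7a10*, chr7:35200887-35200913, plus strand: CATGttgtttattgagaagggggttgt
*Gpr37l1*, chr1:135160358-135160384, minus strand: CATGtgttttcccttttccccagagca
*Vim*, chr2:13580122-13580148, plus strand: CATGaaggaagagatggctcgtcacct
*Slc4a4* and *Apoe* had 2 distinct tags each over their RefSeq transcripts, and 1 of them is shown. The tag shown for *Apoe* lies outside the gene span used here (chr7:19696243-19699166), as do the tags located for *Cldn10* and *Aldoc*. Whether the authors' mapping counted these tags was not tested. From the tag to the end of the transcript were 32 to 810 bases, with a median of 216, and a transcript that ends before the tag is not counted.

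The libraries held 7754202 to 13082873 tag hits, with a median of 10383038 for *cast/cast* and 10032338.5 for *b6/b6* libraries, and every member was detected in every mouse with at least 69 hits. Libraries of the same genotype did not form 1 group. *b6/b6* mice 6 and 12 stood apart from the other 22 on the first and second components of the genes outside the Chr 17 segment (33.7% and 18.4% of their variance). The 5 others (*cast/cast* mice 4, 5, 6 and 8 and *b6/b6* mouse 1) lay at the opposite end of the first. *b6/b6* mice 6 and 12 also carry low study numbers, as do 4 other mice. No batch of library preparation or sequencing is named in the labels, and the dissection and library dates of these mice were not given in the sources used here. Below, the comparisons between groups and the slopes are given with all mice and, for the calls named, without *b6/b6* mice 6 and 12, and the correlations also in the 17 libraries left without all 7. No comparison between groups was fitted without the 5 other libraries together. Where a level differs between hypothalami, fewer cells of a type and less RNA per cell cannot be told apart.

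The transporters and enzymes of transmitter uptake had the narrowest range of all roles with several genes. Their summed level ran from 24820.4 to 36855, a range of 1.49-fold over 24 mice. *Slc1a2*, the main glutamate transporter of the forebrain, ran from 9031 to 12834 (median 10416) in *b6/b6* mice and from 7962 to 13947 (median 11384) in *cast/cast* mice. Its 1.75-fold range was the narrowest of the 30 members. Its spread within genotype lay in the lowest 10% of the 4499 genes with a mean at least that of *Vim*, the least abundant member. *Slc1a3*, the second astrocyte glutamate transporter, ran from 3695 to 11936 (median 7539.7) in *b6/b6* mice and from 3148 to 13059 (median 10146) in *cast/cast* mice. *Glul*, which makes glutamine from the glutamate taken up, ran from 5788 to 15444. *Slc6a11*, a GABA transporter, ran from 1030.1 to 3462, and *Slc7a10*, which exchanges serine and other small neutral amino acids, from 2015 to 4028 (median 2819.6) in *b6/b6* mice and from 2777 to 5068 (median 3387) in *cast/cast* mice. In all 5 the genotypes overlapped.

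Genes of water and ion balance at the endfeet were less abundant. *Atp1b2*, a sodium pump subunit, ran from 753 to 4642 and *Slc4a4*, the sodium bicarbonate cotransporter, from 376 to 2629.8 (median 913) in *b6/b6* mice and from 413 to 1135 (median 608) in *cast/cast* mice. *Hepacam*, an adhesion protein that holds *Mlc1* at astrocyte junctions, ran from 499.7 to 1448, *Mlc1* from 210.1 to 703, and *Aqp4*, the endfoot water channel, from 390.3 to 651 (median 543) in *b6/b6* mice and from 284 to 704 (median 438) in *cast/cast* mice. *Aqp4* and *Hepacam* spanned under 3-fold, *Atp1b2* and *Slc4a4* over 6-fold.

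Junction genes spanned the widest ranges as a group. *Gjb6* and *Gja1* encode the main astrocyte connexins, which form the gap junctions of the glial network. *Gjb6* ran from 506 to 6985 (median 2432) in *b6/b6* mice and from 1358 to 8880.5 (median 2110.3) in *cast/cast* mice and *Gja1* from 250.2 to 2975 (median 446) in *b6/b6* mice and from 229.9 to 585 (median 446) in *cast/cast* mice. The medians of *Gja1* were nearly equal in the genotypes, while the highest values came from *b6/b6* mice 6 and 12. *Cldn10*, a claudin, ran from 106 to 1628 and had a spread within genotype above that of 98.9% of genes at least as abundant as *Vim*.

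Among cytoskeletal and calcium-binding members, *S100b* ran from 911 to 3564. *Gfap*, the intermediate filament that rises in reactive astrocytes, ran from 203 to 592 (median 401) in *b6/b6* mice and from 224 to 689.6 (median 339.5) in *cast/cast* mice. *Vim*, the intermediate filament of tanycytes and immature glia, ran from 112 to 806 (median 310.4) in *b6/b6* mice and from 117 to 629.5 (median 448) in *cast/cast* mice and had the lowest mean of the members. *Sox9*, the transcription factor that keeps astrocyte identity, ran from 397 to 1352. The receptors *Fgfr3*, *Ntsr2* (a neurotensin receptor) and *Gpr37l1* (an orphan receptor of astrocytes) ran from 1310.4 to 6144, 1099.5 to 5846 and 199 to 3276. *Gpr37l1* was lowest in *cast/cast* mice 4 and 8, at 199 and 561, and at least 961 in every other mouse.

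The secreted proteins were led by *Apoe*, the lipid carrier of brain lipoproteins, which ran from 11404 to 34226 (median 16511) in *b6/b6* mice and from 13161 to 30589 (median 17157) in *cast/cast* mice. *Clu*, a second apolipoprotein, ran from 1118 to 10492, *Agt*, the angiotensin precursor that hypothalamic astrocytes make, from 672 to 2111, and the protease *Htra1* from 302 to 1006. *Cst3*, the protease inhibitor cystatin C, ran from 1734 to 29594 (median 6717) in *b6/b6* mice and from 1789 to 6496 (median 4043) in *cast/cast* mice. Of the metabolic genes, *Ndrg2* had the highest mean of the members and ran from 24748 to 97509. The glycolytic enzyme *Aldoc* ran from 2735 to 15593 and the folate enzyme *Aldh1l1* from 1379 to 3740.1. *Fabp7*, the brain fatty acid binding protein of radial glia, tanycytes and astrocytes, ran from 1191 to 7319 (median 4612) in *b6/b6* mice and from 1918 to 11987 (median 6107) in *cast/cast* mice. *Acsbg1*, an acyl-CoA synthetase, ran from 90.3 to 2592 (median 257) in *b6/b6* mice and from 65.7 to 335 (median 235) in *cast/cast* mice, and its 39.4-fold range was the widest of the members.

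Over all 24 mice, 6 members spanned under 3-fold, 11 spanned 3- to 5-fold, 6 spanned 5- to 10-fold and 7 at least 10-fold. In spread within genotype, 20 of 30 lay above the median of the genes at least as abundant as *Vim* and 7 in the top 10% of these genes. Genes that mark the same cells thus differed in how much they varied, and the genotypes' ranges overlapped for all 30.

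**Figure D1:**
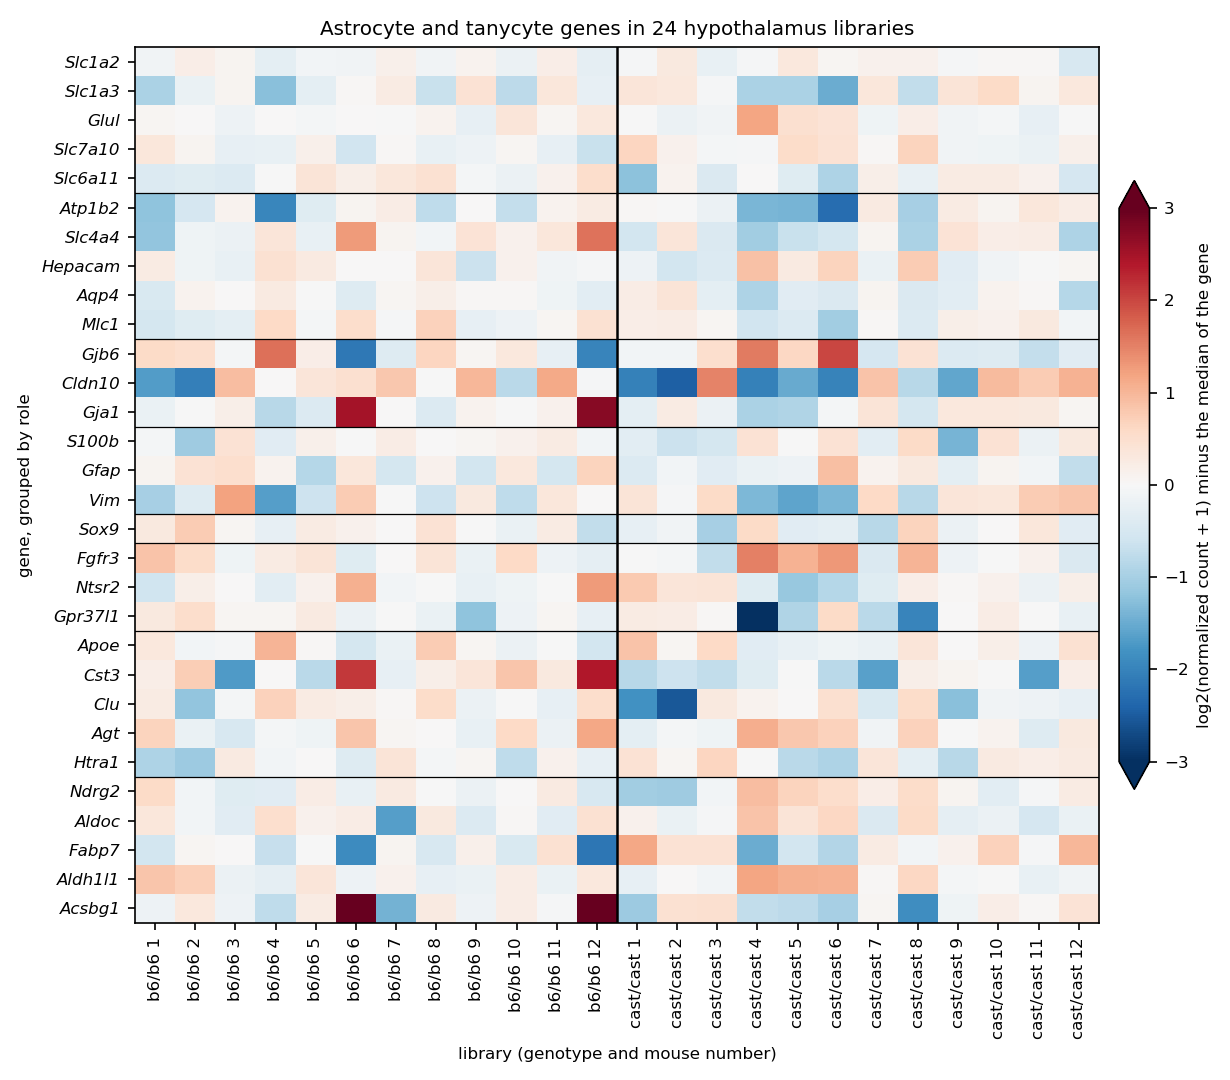
Level of each of the 30 members (rows, by role) in each of the 24 mice (columns, by genotype), as the log2 normalized count minus the member's median over all mice, with colours that stop at 3 above and below. *b6/b6* mice 6 and 12 are dark in *Acsbg1*, *Gja1* and *Cst3* in one direction and in *Gjb6* and *Fabp7* in the other, and *Slc1a2* is nearly flat.

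*b6/b6* mice 6 and 12 differed from the other 22 mice in 9 members, with no overlap. These libraries were picked out by their gene expression, so the values are a description without a test. *Acsbg1* was 2492 and 2592, against 65.7 to 335 (median 228) in the others, a mean 11.5-fold as high. *Gja1* was 2499.6 and 2975, against 229.9 to 585 (median 443), or 6.46-fold. *Cst3* was 24354 and 29594, against 1734 to 10066 (median 5568), or 5.24-fold. All 3 were far above every other mouse. *Slc4a4* was 2059 and 2629.8, against 376 to 1138 (median 792), or 2.99-fold, and *Ntsr2* was 5061 and 5846, against 1099.5 to 4167 (median 2392), or 2.31-fold. *Gjb6*, the other connexin, lay on the opposite side from *Gja1*, at 506 and 564, against 1358 to 8880.5 (median 2432), a ratio of 0.174. *Fabp7* was 1444 and 1191, against 1918 to 11987 (median 5489.9), a ratio of 0.228. *Apoe* and *Slc7a10* were below every other mouse by less, at ratios of 0.598 and 0.608. The 5 members above and 4 below compare with 18.6% and 11.8% of all genes in those positions, so the share of members is near that of the transcriptome. The glutamate transporter *Slc1a3* was at 8969 and 7426 in these mice, inside the range of the others, and the summed level of the 30 members was 160966 and 164207, against a median of 155699. Summed markers of neurons (48431 and 56909), oligodendrocytes (31637 and 31094) and endothelial and mural cells (3869 and 3553) also lay inside the ranges of the other mice. Those of microglia were within the others' range as well. Such sums are led by abundant genes, as *Mbp* and *Snap25* (medians over all mice 19014 and 17333), and can hide single markers. Without *b6/b6* mice 6 and 12 the ratio of means (*cast/cast* over *b6/b6*) rose from 0.328 to 0.834 for *Mag*. It rose from 0.642 to 1.003 for *Nefl* and from 0.784 to 1.057 for *Cldn5*. The pair thus raised the *b6/b6* means of these 3 markers. Single markers were not counted in either direction. Reactive astrocyte genes summed to 3004 and 2379.7 against 3243 to 7049, and pituitary markers to 1233 and 1308 against 1516 to 3758, both below every other mouse. The reactive sum was led by *Amigo2*, with a median over all mice of 2199. *Serpina3n* of that list had a median of 16.4 and its highest value, 278.5, in a *b6/b6* mouse. The member *Gfap* was on average 1.45-fold as high in the pair, with overlap. The low reactive sum therefore does not show that reactive genes in general were low in the pair. The pituitary sum was mostly *Chgb*, with a median over all mice of 2041. The hormone gene *Gh* had a median of 0.94 and its highest value, 466.6, in a *b6/b6* mouse. The low sum therefore does not show that pituitary hormone genes were low in the pair. The part of these marker lists in the members' values was not tested.

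**Figure D2:**
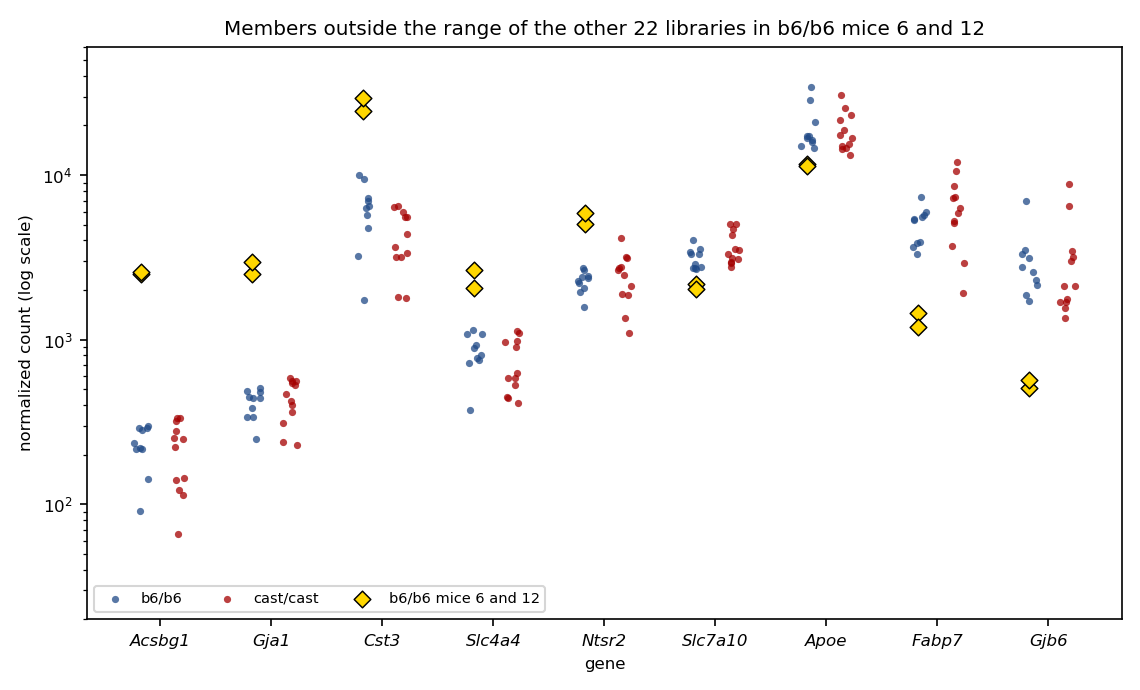
Normalized counts (log axis) of the 9 members in which *b6/b6* mice 6 and 12 do not overlap the other 22 mice, 1 point per mouse. The pair lies above the rest for *Acsbg1*, *Gja1*, *Cst3*, *Slc4a4* and *Ntsr2* and below it for *Gjb6*, *Fabp7*, *Apoe* and *Slc7a10*.

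The 5 libraries at the other end of the first component differed in other members, again described without a test. *Fgfr3* was 3934 to 6144 in them and 1310.4 to 3308 in the rest. *Ndrg2* was 73937 to 97509 against 24748 to 62637. Both thus lay above all other libraries, as did 3.69% of genes, and *Mlc1*, at 210.1 to 326, below all others, as did 2.23%. *Cldn10*, *Vim*, *Atp1b2* and *Slc1a3* had mean ratios of 0.257, 0.362, 0.397 and 0.478 with overlapping ranges. In these 5 mice *Gjb6* was on average 2.20-fold as high as in the rest, and the summed members were 178940.3 to 206294 against 122214 to 169272 (median 151003). Summed other astrocyte genes also lay above the rest, at 81417 to 137909 against 58095 to 76879.6 (median 62980.2), and oligodendrocyte precursor markers below it, at 1292 to 1358 against 1441 to 2322 (median 1765). Reactive astrocyte genes were 5007 to 7049 against 2379.7 to 6179.9 (median 4251) and ependymal markers 534 to 1069 against 658 to 2311 (median 1262), with overlap, as for the other marker lists. Their part in the members' values was not tested.

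To ask whether the Chr 17 genotype changed these genes, *cast/cast* and *b6/b6* mice were compared with limma on log2 values over all 13998 genes, and a gene was called at *P* of at most 0.01 with a ratio of means of at least 1.5. No member was called (0 of 30), against 1.49% of all genes and 0.766% of those outside the segment. None of the 30 lies on Chr 17. Unadjusted *P* was below 0.05 for 3 of 30 members, against 8.13% of genes. These were *Cst3* (log2 difference, *cast/cast* minus *b6/b6*, -0.88 ± 0.34 (SE), *P* = 0.0163, adjusted *P* = 0.543), *Slc7a10* (log2 difference 0.31 ± 0.13 (SE), *P* = 0.0299, adjusted *P* = 0.586) and *Slc4a4* (log2 difference -0.52 ± 0.25 (SE), *P* = 0.0435, adjusted *P* = 0.607), of which none passed adjustment. *Fabp7* (log2 difference 0.55 ± 0.30 (SE), *P* = 0.0771, adjusted *P* = 0.621) and *Acsbg1* (log2 difference -0.76 ± 0.44 (SE), *P* = 0.0946, adjusted *P* = 0.638) followed. All 5 are among the members in which *b6/b6* mice 6 and 12 stood apart. Without those mice, 0 members were called (0.986% of genes) and 0 had *P* below 0.05 (4.89% of genes): *Cst3* was at -0.51, *Slc7a10* at 0.21, *Slc4a4* at -0.27, *Fabp7* at 0.24 and *Acsbg1* at -0.16 on the log2 scale.

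The defining astrocyte genes did not pass either. Log2 differences (*cast/cast* minus *b6/b6*) were 0.05 ± 0.11 (SE) for *Slc1a2* (*P* = 0.629 by limma), 0.12 ± 0.24 for *Slc1a3* (*P* = 0.609 by limma) and -0.18 ± 0.14 for *Aqp4* (*P* = 0.226 by limma). For the filaments they were -0.08 ± 0.18 for *Gfap* (*P* = 0.655 by limma) and 0.10 ± 0.32 for *Vim* (*P* = 0.77 by limma). *Gja1* was at -0.42 ± 0.32 (*P* = 0.206 by limma) and *Apoe* at 0.07 ± 0.18 (*P* = 0.684 by limma). The sign of *Gfap*, *Slc1a2*, *Gja1*, *Apoe* and *Vim* turned under some of the alternatives, so no direction is given for them. The median difference over the 30 was 0.010, beside -0.018 over all genes. On counts, edgeR and DESeq2 each called 2 members, *Acsbg1* and *Cst3*, both lower in *cast/cast* mice.

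**Figure D3:**
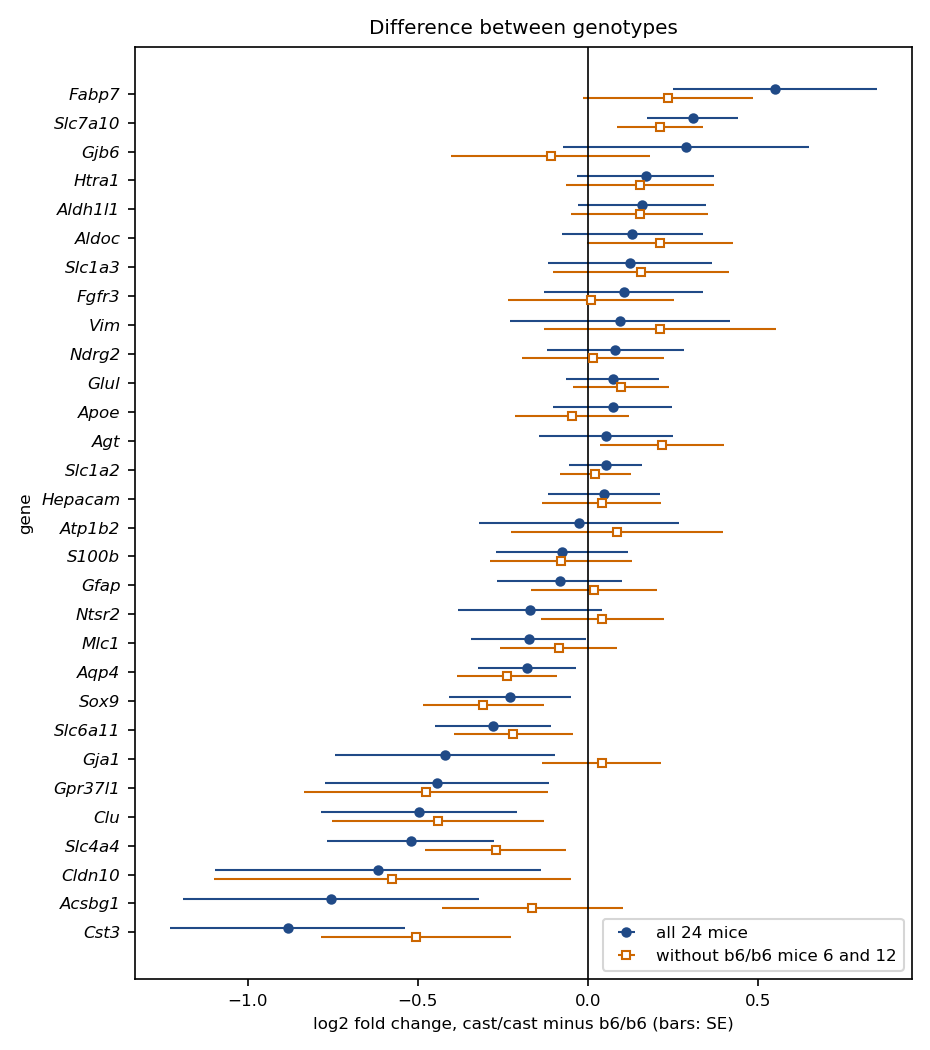
Log2 difference between genotypes (*cast/cast* minus *b6/b6*, bars are 1 SE from limma) for the 30 members, with all 24 mice and without *b6/b6* mice 6 and 12. *Cst3* and *Acsbg1* lie farthest below 0 with all mice, at -0.88 and -0.76, and move toward 0 without the pair.

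Intake was then taken as a slope within genotype, in log2 units per 10 kcal over 10 d. With C/P intake, 0 of 30 members were called at *P* of at most 0.01, against 0.572% of genes, and only *Ntsr2* had *P* below 0.05 (slope -0.37 ± 0.14 (SE), *P* = 0.0173, adjusted *P* = 0.96 by limma), against 3.72% of genes. Its slope without *b6/b6* mice 6 and 12 was -0.26 (*P* = 0.051 by limma). With total intake 2 of 30 were called, both upward, against 1.77% of genes (0.879% upward), and 5 had *P* below 0.05, against 9.96%. *Fabp7* rose by 0.53 ± 0.16 (SE) per 10 kcal (limma, *P* = 0.00237, adjusted *P* = 0.485) and *Gpr37l1* by 0.58 ± 0.17 (limma, *P* = 0.00247, adjusted *P* = 0.485). Neither passed adjustment over all genes, and no gene did. Within genotype, the slopes of *Fabp7* were 0.31 for *b6/b6* and 0.72 for *cast/cast* mice, and those of *Gpr37l1* 0.23 and 0.89. Both calls rested on *cast/cast* mouse 4, which had the lowest total intake of its group and the lowest *Gpr37l1* of all mice: without it the slopes were 0.43 (*P* = 0.0188 by limma) and 0.30 (*P* = 0.0494 by limma). Without *b6/b6* mice 6 and 12 both were called together with *Ntsr2* (0.29), or 3 of 30 against 1.91% of genes, although the slope of *Fabp7* within *b6/b6* mice was then 0.015. *Ccdc153*, a gene of motile cilia, was the only ependymal marker of 6 called with total intake (0.41 per 10 kcal), and the median slope of those 6 was 0.41, beside -0.03 for 15 other tanycyte genes. When *b6/b6* mice 6 and 12 were left out, *Ccdc153* was at 0.32 (*P* = 0.014 by limma), 0 of the 6 were called and their median was 0.31.

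The 6 mice with study numbers 15 to 72 (*cast/cast* mice 4 and 6, *b6/b6* mice 6, 7, 9 and 12) were compared with the 18 numbered 93 to 364, with genotype as a covariate, because no label gives a date of testing and the study number may follow its order. The colony numbers in the labels put the same 6 mice below the other 18. The study number is partly confounded with genotype, its median being 120.5 for *cast/cast* and 269.5 for *b6/b6* mice. Of the 30 members 1 was called, against 3.11% of genes (1.47% downward), and 5 had *P* below 0.05, against 12.9%. *Fabp7* ran from 1191 to 5934 (median 2426) in the low-numbered mice and from 3306 to 11987 (median 5489.9) in the others. The lowest 4 mice of all were low-numbered, and the other 2 low-numbered mice lay inside the range of the 18. *Fabp7* was lower in the low-numbered mice, by a log2 difference of -1.04 ± 0.29 (SE; limma, *P* = 0.00152, adjusted *P* = 0.298). Without *b6/b6* mice 6 and 12 the difference was -0.61 (*P* = 0.0537 by limma) and 0 members were called (0.814% of genes), and without *cast/cast* mouse 4 *P* was 0.0119 by limma. When all 4 libraries that correlated least with the rest were left out, only 2 low-numbered mice remained and the difference was 0.33. Summed ependymal markers were 534 to 1720.2 (median 753) in low-numbered and 602 to 2311 (median 1166) in the other mice. Of the 6 markers 4 had *P* below 0.05, all lower in low-numbered mice, 0 were called, and each of the 6 was detected in every library. Their median difference was -0.82, and without *b6/b6* mice 6 and 12 it was -0.51, with 0 of 6 at *P* below 0.05. Their part in the *Fabp7* results, here and with intake, was not tested.

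Whether the slope on C/P intake differed between the genotypes was tested as an interaction, with adjustment over all genes. *Fabp7* was the only member of 30 with adjusted *P* of at most 0.05, against 3.39% of genes. Its slope was 1.57 per 10 kcal for *b6/b6* and -0.29 for *cast/cast* mice, a difference of -1.86 ± 0.52 (SE; limma, *P* = 0.00133, adjusted *P* = 0.0456). The 12 *b6/b6* mice spanned only 27.4 to 41.0 kcal, and mouse 12, with the lowest intake, had the lowest *Fabp7* of all mice. Without *b6/b6* mice 6 and 12 the *b6/b6* slope was 0.78, the interaction was -1.07 (*P* = 0.124 by limma), and 0 of 13998 genes passed. Leaving out each mouse in turn kept the call in 8 of 24 cases, with differences no nearer 0 than -1.51 and unadjusted *P* of up to 0.0467 by limma. At an unadjusted *P* of at most 0.01, *Fabp7*, *Agt* (1.04) and *Cst3* (1.73) passed, or 3 of 30 against 9.93% of genes. With *b6/b6* mice 6 and 12 left out, 0 members passed this level or had *P* below 0.05, with *Agt* at 0.77 and *Cst3* at 0.69. The same interaction had a median of -1.63 over the 6 ependymal markers, of which *Ccdc153* (-1.52) and *Dynlrb2* (-1.91) passed unadjusted. Over the mice other than *b6/b6* mice 6 and 12 the median was -0.94, 0 of the 6 had *P* below 0.05, and *Ccdc153* and *Dynlrb2* were at -0.45 (*P* = 0.434 by limma) and -1.43 (*P* = 0.126 by limma). Over the 15 other tanycyte genes the median with all mice was 0.08.

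**Figure D4:**
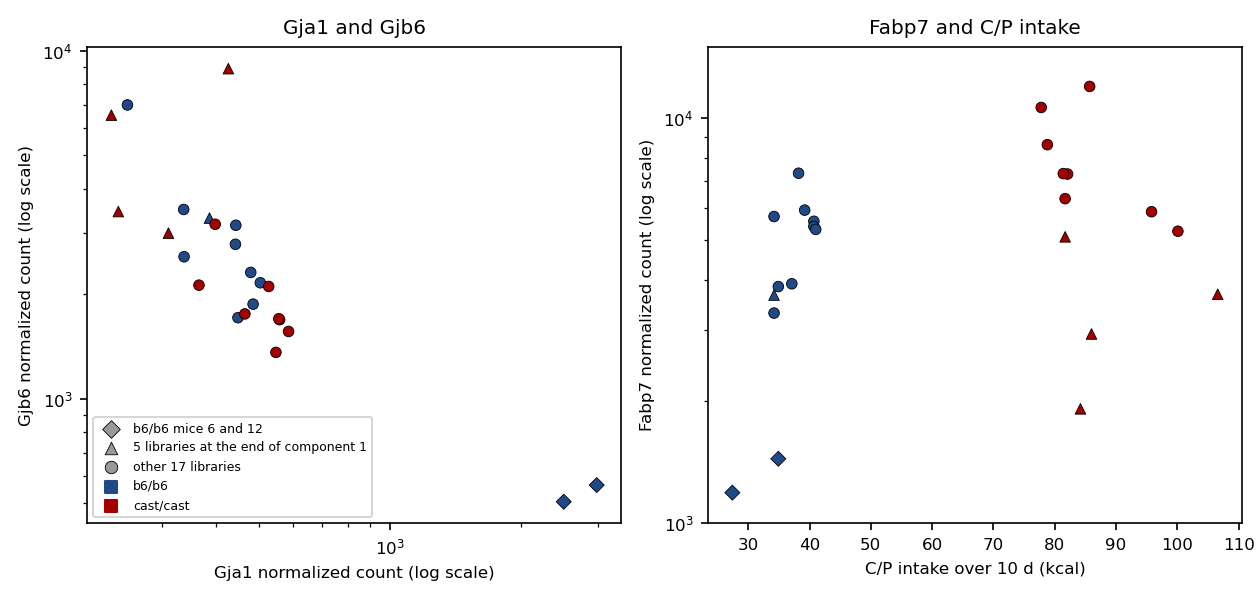
Left, normalized counts of *Gja1* against *Gjb6* in 24 mice on log axes. Right, *Fabp7* (log axis) against C/P intake over 10 d (kcal). *b6/b6* mice 6 and 12 hold the highest *Gja1* with the lowest *Gjb6*, and the lowest *Fabp7*.

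To ask whether the members rose and fell together across mice, correlations of log2 levels, after removal of the genotype means, were taken over all 435 pairs of members in 24 mice as a description. These points share their libraries and their scaling. The median *r* was -0.01, 12.9% of pairs were above 0.5 and 12.9% below -0.5. Among pairs of all genes at least as abundant as *Vim*, 18.3% and 13.3% were. The share of strongly positive pairs among the members was thus below that among genes in general. Clustering put 16 members in a group with *Slc1a3*, *Vim*, *Gja1*, *Aqp4* and *Apoe* and 14 in one with *Slc1a2*, *Gfap*, *Glul*, *Sox9* and *Gjb6*. *Apoe* and *Slc1a2* hardly followed their own groups, with mean *r* of -0.04 and 0.01 to the other members there. Median *r* was 0.29 and 0.31 within these groups and -0.32 between them. The groups were made from these correlations, so their separation is no finding. In the 17 libraries left without the 7 that stood apart, median *r* was 0.00 and 0.07 within and -0.03 between the same groups.

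Some pairs kept close values without those 7 libraries. *Slc1a3* and *Atp1b2* had *r* = 0.94 in 24 and 0.88 in 17 libraries, and *Atp1b2* and *Vim* 0.90 and 0.84. Other strong pairs did not: *Gja1* and *Acsbg1* went from 0.86 to 0.21, *Fgfr3* and *Aldh1l1* from 0.83 to 0.39, and *Fabp7* and *Agt* from -0.80 to -0.14.

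**Figure D5:**
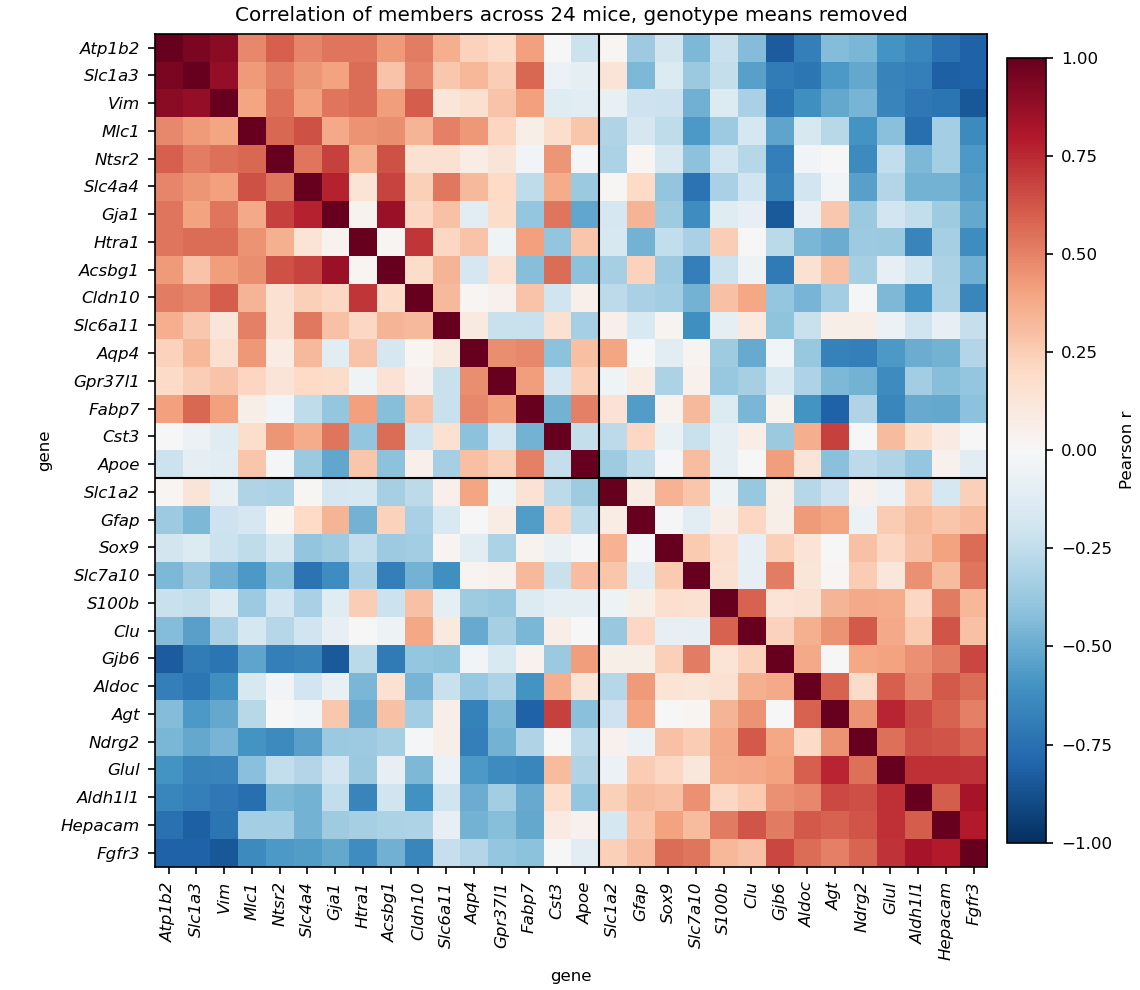
Pearson *r* of log2 levels between all pairs of the 30 members over 24 mice, after removal of the genotype means, ordered by clustering into groups A (16 members) and B (14 members). *Slc1a3*, *Atp1b2* and *Vim* form the brightest block, with *r* of 0.88 to 0.94, and *Gja1* against *Gjb6* is among the most negative pairs, at -0.84.

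For 9 pairs chosen by shared role, the correlation over 24 mice was tested by permutation within genotype with 100000 resamples, two-sided. Each permutation *P* tests whether 2 genes vary independently within genotype. It does not compare a pair with pairs of all genes at least as abundant as *Vim*. Of those pairs, 18.3% had *r* above 0.5 and 13.3% below -0.5. The connexins *Gja1* and *Gjb6* moved oppositely, with Pearson *r* = -0.84 (permutation *P* = 5e-05, adjusted *P* = 0.00045 over 9 pairs) and Spearman rho = -0.82 (permutation *P* = 3e-05, adjusted *P* = 0.00027). The mice farthest from the median of *Gja1* were *b6/b6* mice 6 and 12, and without them *r* was -0.71 (permutation *P* = 0.00099). In the 17 libraries it was -0.81 (permutation *P* = 0.00075, adjusted *P* = 0.00675). *Aldoc* and *Aldh1l1* had *r* = 0.48 (permutation *P* = 0.015, adjusted *P* = 0.0676) and rho = 0.44 (permutation *P* = 0.0392, adjusted *P* = 0.176). Without the 2 farthest mice *r* was 0.57 (permutation *P* = 0.00721, adjusted *P* = 0.0324), and it was -0.10 in the 17 libraries (permutation *P* = 0.787). The glutamate transporters *Slc1a2* and *Slc1a3* had *r* = 0.13 (permutation *P* = 0.578) and rho = 0.28 (permutation *P* = 0.184) in 24 mice, *r* = 0.42 without the 2 farthest (permutation *P* = 0.0528) and 0.59 in 17 libraries (permutation *P* = 0.00389, adjusted *P* = 0.0175). The other 6 pairs had *P* above 0.1 in 24 mice. Among them *Mlc1* and *Hepacam* had *r* = -0.34 (permutation *P* = 0.111) and rho = -0.22 (permutation *P* = 0.302) in 24 mice, and *r* turned to 0.57 in the 17 libraries (permutation *P* = 0.0481, adjusted *P* = 0.144). *Slc1a2* and *Glul* had *r* = -0.06 in 24 mice and -0.41 in 17 (permutation *P* = 0.0803, adjusted *P* = 0.181).

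Lists of related genes give the setting. Of 37 other astrocyte genes 3 were called between genotypes, against 1.49% of all genes and 0.766% of those outside the segment. All 3 were lower in *cast/cast* mice and inside the CAST/EiJ segment. The paper had already reported all 3 as differentially expressed, and the list was made with earlier results known. This count is therefore no finding about astrocyte genes. *Pla2g7*, which encodes a platelet-activating factor acetylhydrolase, ran from 252 to 1225 in *b6/b6* mice and from 0.953 to 10.4 in *cast/cast* mice (-6.73 on the log2 scale), so the groups did not overlap. *Cyp4f14* and *Cbs* (cystathionine beta-synthase) were at -3.43 and -1.11, with overlap. The tags of these 3 genes were not examined for sequence differences between the strains. Of 15 other tanycyte genes, 17 reactive astrocyte genes and 19 genes of glutamine, glycogen and lactate handling, 0 were called, with medians of 0.02, 0.22 and -0.11 on the log2 scale beside -0.018 over all genes. Of the markers of other cells, *Tekt4*, an ependymal cilia gene inside the segment, was higher in *cast/cast* mice, by 0.91 on the log2 scale, and *Tcf7l2*, a thalamic transcription factor, lower, at -0.84, while 0 of the markers of neurons, oligodendrocytes and their precursors, microglia, vessels, choroid plexus and pituitary were called. Tanycyte genes such as *Dio2*, which makes active thyroid hormone, were detected at 61.7 to 241. Of the lactate genes, *Ldhb*, a lactate dehydrogenase subunit, fell by 0.40 on the log2 scale per 10 kcal of C/P intake, and was at -0.36 and no longer called without *b6/b6* mice 6 and 12. Of the reactive genes, *S100a10* rose with total intake, by 0.28 per 10 kcal, and kept its call without those mice, at 0.27. In low-numbered mice *Bmpr1b* and *Slc27a1* among other astrocyte genes and *Slc38a2*, a neutral amino acid transporter, were higher, by 0.90, 0.92 and 1.05 on the log2 scale, and the reactive gene *Hspb1* was lower, at -1.12. The endothelial transporter *Slco1a4* was also higher there, by 1.15. Of all genes 3.11% were called in this comparison. All 5 of these calls were lost without *b6/b6* mice 6 and 12, with *Bmpr1b* at 0.25, *Slc27a1* at 0.36, *Slc38a2* at 0.44, *Hspb1* at -1.13 and *Slco1a4* at 0.44. The tanycyte gene *Gpr50*, an orphan receptor related to melatonin receptors, was then called (-1.22, *P* = 0.00998 by limma). The 5 calls between genotypes named above (*Pla2g7*, *Cyp4f14*, *Cbs*, *Tekt4* and *Tcf7l2*) were kept. None of these calls with intake or study number passed adjustment over all genes. Of the calls between genotypes, *Cbs* did not pass it either, with adjusted *P* = 0.0784 by limma. Without *b6/b6* mice 6 and 12 its adjusted *P* was 0.269 by limma. *Cyp4f14* passed, at adjusted *P* = 1.07e-05 by limma with all mice.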

How the data were processed

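Whole hypothalami of 24 mice were profiled by SAGE-Seq. The authors counted 27-base tags with a modified SOLiD SAGE pipeline against RefSeq mRNA and GRCm38/mm10 and divided the tag hits by DESeq size factors. The deposited signal is this normalized tag count, and whole hits were recovered for 100% of values (within 0.05). Columns with the authors' own comparisons (*P*, adjusted *P*, ratio, log2 fold) were not used. The 32 members and all gene lists were chosen with earlier results of these data known. *Mt3* and *Rax* were not analysed here. Groups came from the sample labels, and nothing says that libraries were repeated, so each mouse is 1 replicate.

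All 13998 genes (lowest mean 6.03, above the minimum of 5) were tested with limma 3.58.1 in R 4.3.3 (lmFit, eBayes with trend) on log2(normalized count + 1). Fold changes on this scale understate those of low genes. Calls between genotypes needed *P* of at most 0.01 and a 1.5-fold ratio of means, slopes and study-number differences *P* of at most 0.01, and the interaction a Benjamini-Hochberg adjusted *P* of at most 0.05. Full values were given for members called in any comparison, the 5 with the lowest *P* between genotypes, and *Gfap*, *Aqp4*, *Slc1a2*, *Slc1a3*, *Gja1*, *Apoe* and *Vim*. Other lists were named by called genes, at most 5 by lowest *P*. For the members in which libraries stood apart, values were chosen after they were seen. Alternatives were edgeR 4.0.16 (quasi-likelihood, TMM) and DESeq2 1.42.0 on recovered hits, other pseudocounts, filters, scaling and covariates, and each mouse left out. Those without *b6/b6* mice 6 and 12, without the 7 libraries, and all alternatives of the interaction were added after seeing the data. Pairs were tested by permutation within genotype (Python 3.11.15, scipy 1.17.1, 100000 resamples). The models were tested on simulated data. Tags were located on GRCm38 with GENCODE vM21 gene models. Strain differences within tags were not examined. Tag hits are reads without molecular identifiers.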

Additional observations from a re-analysis of the deposited data

Results flagged for a closer look

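*Fabp7*, the brain fatty acid binding protein, was flagged because its slope on C/P intake differed between the genotypes by a test of the difference itself. The difference (*cast/cast* minus *b6/b6*) was -1.86 on the log2 scale per 10 kcal, with an adjusted *P* of 0.0456 over all genes by limma. It was -1.07 without *b6/b6* mice 6 and 12 (*P* = 0.124 by limma), and 3.39% of all genes passed the same test with all mice and 0% without those 2. Groups of 12 mice were not examined for single outlying mice by a range test.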

How the results depend on the processing

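Between genotypes, 0 members were called by limma, 2 by edgeR and 2 by DESeq2 (*Acsbg1* and *Cst3* in both) and 2 with the study number as a covariate (*Cst3* and *Slc4a4*). Leaving out each mouse gave 0 to 1, with *Slc4a4* called without *b6/b6* mouse 1 and *Cst3* without *b6/b6* mouse 3 or 5. Over all genes, 66 were called higher and 142 lower in *cast/cast* mice, against 43 and 187 with every library scaled to the same total, 60 and 331 by edgeR and 86 and 429 by DESeq2. Signs turned for *Gfap* (0.017 without *b6/b6* mice 6 and 12, 0.085 with 2 principal components as covariates), *Slc1a2* (-0.040 at the same total), *Gja1* (0.12 without the 4 distant libraries, 0.040 without *b6/b6* mice 6 and 12, 0.13 with 2 components), *Apoe* (-0.019 at the same total, -0.047 without *b6/b6* mice 6 and 12, -0.011 with the low study numbers as a covariate, -0.11 with 2 components) and *Vim* (-0.027 with the study number as a covariate and -0.035 to 0.23 on leaving out each mouse, negative without *b6/b6* mouse 4). With C/P intake DESeq2 called 1 (*Ntsr2*).

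With total intake 2 were called by limma, 1 by edgeR, 1 without the distant libraries (*Ntsr2*), 0 without the 2 mice farthest in intake, 0 after adjustment, and 0 to 3 on leaving out each mouse. For low against other study numbers 1 was called by limma, 3 at the same total, 4 by edgeR, 5 by DESeq2, 2 as a slope on study number (*Gja1* and *Slc4a4*), 0 without *b6/b6* mice 6 and 12, 0 after adjustment, and 1 to 3 on leaving out each mouse. The difference for *Fabp7* turned to 0.33 without the distant libraries. DESeq2 gave 3 members with an interaction (*Fabp7*, *Agt* and *Gja1*), 0 passed without *b6/b6* mice 6 and 12, and 0 to 1 on leaving out each mouse. Of the pairs, 1 passed with all mice, 2 without the 2 farthest mice and 2 without the 7 libraries, where *Aldoc* and *Aldh1l1* had *r* = -0.10. The causes were not tested.

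No paired analysis was possible because the labels give the genotypes no shared replicate numbers. The spread of single members limited what could be seen: the SE of a genotype difference was 0.11 for *Slc1a2* and 0.44 for *Acsbg1* on the log2 scale. Of the counts of called members and pairs under the alternatives, 127 stayed within 1.5 times the reported count and 45 did not. Of the values for single members and pairs, 504 kept their direction and their side of the threshold, 28 lost a call, 10 gained one and 14 turned sign.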
